A study of Homo sapiens with 40 samples.

Results

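Kinesins are the motor proteins that walk along or take apart microtubules, and this account follows the genes that encode them through 24 h of PI3K inhibition in a melanoma line. Members were all genes whose single symbol on the array begins with KIF and a digit or with KIFC, with the probe set of highest mean signal standing for each gene. That gave 45 of the 19775 genes with a single symbol, of which 41 encode motor proteins and 4 are antisense RNAs named after a kinesin gene. The motor genes were read as 13 mitotic kinesins, 17 transport kinesins and 11 others. KIF2A, which acts at spindle poles and in neurons, was placed among the others, while KIF2B and KIF2C were read as mitotic. Genes in the dimmest 40% by mean signal were not tested, which left 32 motor genes (12 mitotic, 14 transport and 6 others) and no antisense RNA among the 11865 genes tested.

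Kinesins couple ATP hydrolysis to movement along microtubules, most of them towards the growing plus end. Mitotic kinesins build the spindle, move chromosomes and drive the division of the cell, and in cycling cells their transcripts rise towards G2 and mitosis. Transport kinesins carry vesicles, organelles and protein complexes through the cytoplasm in cycling and resting cells alike, and in pigment cells they take part in moving melanosomes and the endosomes that feed them.

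A2058 is an established human melanoma cell line. Cells received 1 treatment for 24 h, and the RNA was hybridised to 40 one-colour oligonucleotide arrays, 4 per group. The groups were BKM120 at IC30, IC50 and IC90 (its maximum), BEZ235 at IC50, IC90 and maximum, GDC0941 at IC50, IC90 and maximum, and the DMSO control. All groups were of the same line in the same medium (high-glucose DMEM with 10% fetal calf serum) and differed in the agent. BKM120 (buparlisib) and GDC0941 (pictilisib, spelled GCD0941 in the labels) are inhibitors of class I PI3K, and BEZ235 (dactolisib) inhibits PI3K and mTOR. Neither the molarity of each agent nor the readout behind the IC values was given in the sources used here, so compounds are set side by side at the same named level. The labels call the replicates biological and do not say whether they were separate cultures, so the p-values measure the spread between these arrays.

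The arrays carried melanocyte transcripts: SOX10 had an intensity of 1575 to 2649, MITF 1592 to 2216 and PMEL 709 to 1555 over the 40 arrays. Of the markers of other cell types, PTPRC, CD3E, CDH5, EPCAM and KRT5 stayed at 8 or lower on every array, while PECAM1 had 9.5 to 22.5, KRT14 19.4 to 73.1, DCN 26.9 to 65.4 and LUM, a matrix proteoglycan gene, 752.5 to 1549. One array stood apart in RNA quality. On BEZ235 IC50 replicate 3 the 3′ over 5′ ratio of the GAPDH control probe sets was 1.773 on the log2 scale, against 0.07 to 0.337 on the other 39 arrays. Its median level over the mitotic kinesins was 8.919, against 8.371 to 8.484 on the other 3 arrays of its group (log2 scale), so counts that rest on it are given with and without it.

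Changes below are differences of group means of log2(intensity + 16), given with a standard error (SE). A gene was called when its p-value from limma, adjusted by the Benjamini-Hochberg method over all 11865 genes in that comparison, was under 0.05. All 9 treatments share the same 4 DMSO arrays.

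BKM120 at IC90 (max) raised all 12 tested mitotic kinesins, while the other 8 treatments raised none of them and lowered between 2 and 12. At BKM120 IC90 (max) the changes ran from 0.325 for KIF11 to 0.94 for KIF20A, with a median of 0.577, beside a median of -0.002 over all genes tested. Of all genes tested, 17.2% were called higher and 17% lower in that comparison. At GDC0941 max all 12 were called lower, with a median change of -0.441, beside 25.5% of all genes called higher and 18.2% called lower. The map of the 32 genes by treatment shows the mitotic block in opposite colours in those columns, while the transport block mixes both.

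**Figure D1:**
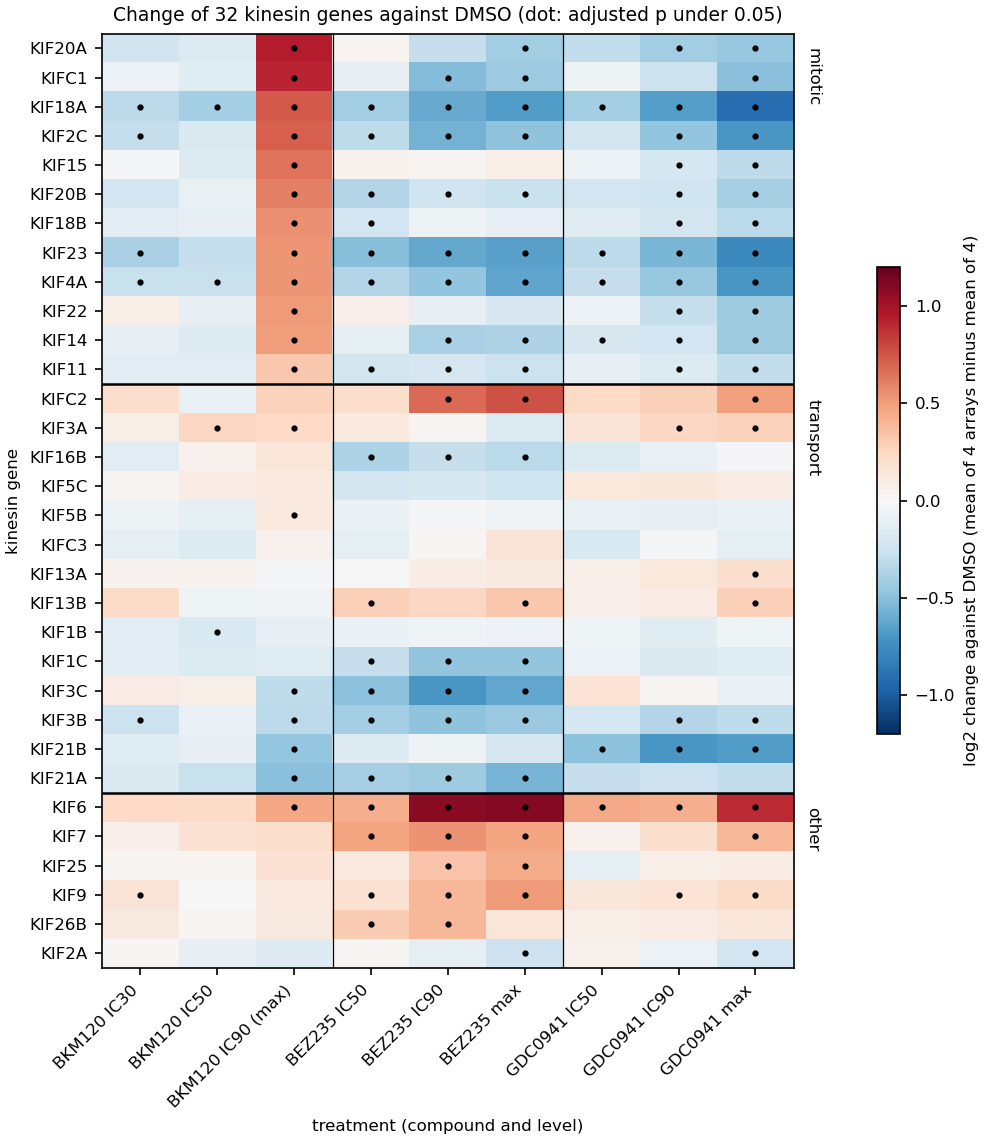
Change of each of the 32 tested kinesin genes (rows, grouped as mitotic, transport and other) under each of the 9 treatments (columns), as the mean log2(intensity + 16) of 4 treated arrays minus that of 4 DMSO arrays; a dot marks an adjusted p under 0.05. All 12 mitotic rows are red and dotted at BKM120 IC90 (max) and blue and dotted at GDC0941 max, whereas transport rows mix both colours.

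The motors that build and focus the spindle are KIF11, which slides antiparallel microtubules apart, KIF15, which helps to keep the spindle bipolar, and KIFC1, a minus-end-directed motor that draws microtubules into poles. KIF11 had intensities of 1548, 1599, 1572 and 1574 on the BKM120 IC90 (max) arrays, against 1272, 1259.9, 1249.8 and 1228 on the DMSO arrays. These groups do not overlap, and the change was 0.33 (SE 0.06, adjusted p = 1.3e-05, limma). At GDC0941 max KIF11 had 1035, 1122, 934 and 983, all under the DMSO arrays (change -0.30, SE 0.06, adjusted p = 3.3e-05, limma). KIFC1 moved further. It had 806, 799, 805 and 802 at BKM120 IC90 (max), 344, 311, 294 and 275 at BEZ235 max and 291, 281, 328 and 264 at GDC0941 max, against 485, 382, 421 and 392 in DMSO. The 4 BKM120 values lie close together and far above every DMSO value, whereas those of the other compounds lie below every DMSO value. In fold terms KIFC1 was 1.89 times the DMSO level at BKM120 IC90 (max), 0.739 times at BEZ235 max and 0.705 times at GDC0941 max. KIF15 behaved differently with BEZ235. Its change was 0.66 at BKM120 IC90 (max) (SE 0.08, adjusted p = 1.4e-08, limma) and -0.31 at GDC0941 max (adjusted p = 0.00103), but with BEZ235 it was 0.04, 0.03 and 0.08 at IC50, IC90 and max, none of them called. At max KIF15 was higher with BEZ235 than with GDC0941 by 0.39 (SE 0.08, adjusted p = 8.2e-05, limma).

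The motors that place and align chromosomes include KIF18A, which damps chromosome oscillations at the metaphase plate, and KIF2C, a depolymerase that frees faulty kinetochore attachments. They also include the chromokinesins KIF4A and KIF22, which sit on chromosome arms, and KIF18B, which trims astral microtubules. KIF18A was called in all 9 treatments. In the BKM120 series its intensity was 279.9 to 301 on the DMSO arrays, 215 to 247 at IC30, 210.2 to 219 at IC50 and 467 to 519 at IC90 (max). In the BEZ235 series it was 194 to 233 at IC50, 174 to 196 at IC90 and 168 to 188 at max, and in the GDC0941 series 197 to 234, 165 to 197 and 138 to 155. So KIF18A lay under every DMSO array at 8 of the treatments and above all of them at BKM120 IC90 (max). Its changes there were 0.73 (SE 0.06, adjusted p = 1.4e-11, limma) and, at GDC0941 max, -0.91 (SE 0.06, adjusted p = 1.5e-14), the largest fall of any tested kinesin in the 9 treatments. KIF2C had 469.5, 473, 458 and 496 at BKM120 IC90 (max), 199, 228, 193 and 176 at BEZ235 max and 163, 182, 176 and 153 at GDC0941 max, against 288, 306.5, 239 and 303 in DMSO. The BKM120 values stand above all DMSO values and the others below them. KIF4A gave 0.53, -0.63 and -0.70 under those 3 treatments, each called, and KIF22 gave 0.51, -0.19 and -0.43, of which the BEZ235 value was not called (adjusted p = 0.0849, limma). KIF18B was lowered by GDC0941 at IC90 and at max (-0.32 at max), but at BEZ235 IC90 and max its changes of -0.06 and -0.10 were not called. At BEZ235 IC50 KIF18B was called lower (-0.23, adjusted p = 0.0045, limma). It had 1188.5, 1209.1, 876.3 and 1275.3 there, and the low value is on the array that stood apart in RNA quality.

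The motors of late mitosis and cytokinesis are KIF20A, which brings the Aurora B complex to the midzone, KIF23, a subunit of centralspindlin, KIF14 and KIF20B. KIF20A had 836, 963, 924 and 957 at BKM120 IC90 (max), 385, 333, 343 and 335 at BEZ235 max and 339.8, 344.5, 354 and 324 at GDC0941 max, against 487, 512, 429 and 462 in DMSO. Its rise of 0.94 (SE 0.13, adjusted p = 6.2e-07, limma) was the largest among the mitotic kinesins. At BEZ235 IC50 KIF20A had 424, 404, 868 and 354, and the high value is on the array that stood apart in RNA quality. KIF23 had 394, 391, 381 and 415 at BKM120 IC90 (max) and 138, 172, 144 and 152 at GDC0941 max, against 293, 297, 248 and 243 in DMSO. These 3 sets of values do not overlap, and the changes were 0.53 and -0.77. KIF14 (0.51 and -0.42) and KIF20B (0.60 and -0.40) gave the same pair of directions, all called.

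**Figure D2:**
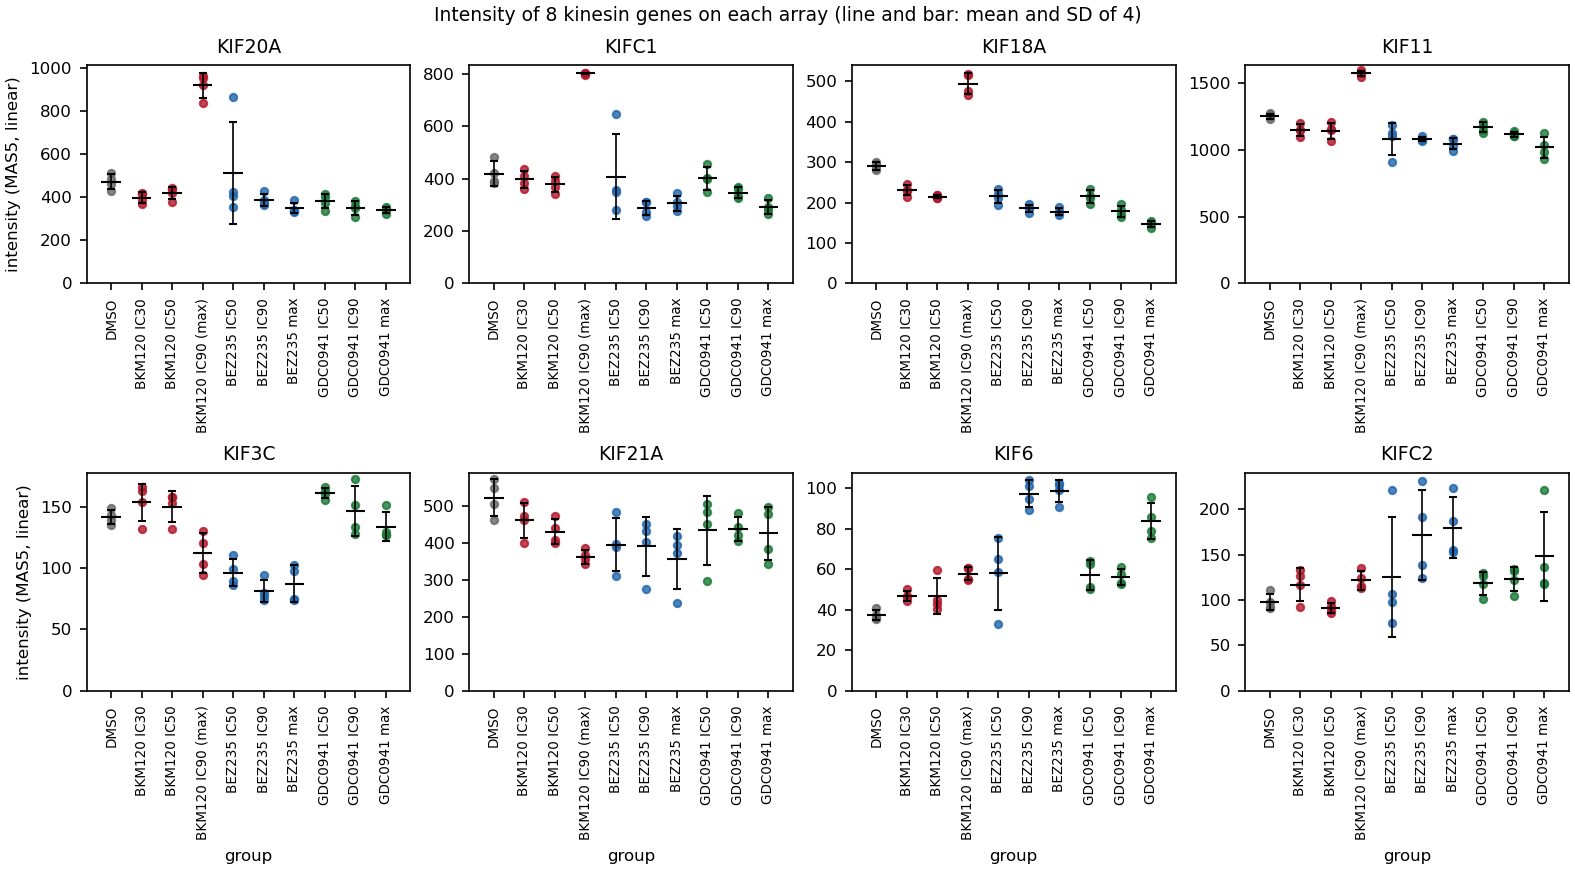
Linear MAS5 intensity of 8 kinesin genes (panels) on each of the 40 arrays, by group (x axis, DMSO first and then each compound from low to high); points are arrays, lines and bars are the mean and SD of 4. KIF20A, KIFC1, KIF18A and KIF11 stand above DMSO at BKM120 IC90 (max) only, apart from 1 high array at BEZ235 IC50 in KIF20A and KIFC1, while KIF6 is highest at BEZ235 IC90 and max.

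The lower levels showed the falls in fewer genes. BKM120 at IC30 lowered 4 of the 12 mitotic kinesins (KIF18A, KIF23, KIF2C and KIF4A) and at IC50 lowered KIF18A and KIF4A, with median changes of -0.184 and -0.16. Among all genes tested, 13.2% were called higher and 8.15% lower at BKM120 IC30, and 12.6% and 7.24% at IC50. BEZ235 lowered 7, 8 and 9 mitotic kinesins at IC50, IC90 and max, with medians of -0.223, -0.332 and -0.393. It also called 26.6%, 31.1% and 32.8% of all genes higher and 18.9%, 23.9% and 24.9% lower, so a wide response surrounded these falls. GDC0941 lowered 4 mitotic kinesins at IC50 and 11 at IC90, with medians of -0.208 and -0.27, beside 9.94% and 15.4% of all genes called higher and 6.19% and 9.83% called lower. KIF15 and KIF22 were outside the BEZ235 falls at all 3 levels, with KIF22 at 0.06, -0.10 and -0.19. KIF20A was called with BEZ235 at max alone (-0.42). Without BEZ235 IC50 replicate 3, the number of mitotic kinesins lowered was 8 at BKM120 IC30, 5 at BKM120 IC50, 8 at GDC0941 IC50 and 9 at BEZ235 IC50. In the first 3 of these that array takes no part in the means and acts through the shared estimate of the spread. The count of 11 at GDC0941 IC90 was between 7 and 10 whichever of the 8 arrays compared was left out. It was 7 without DMSO replicate 1, without DMSO replicate 2 or without GDC0941 IC90 replicate 2. The count of 4 at GDC0941 IC50 was 2 without DMSO replicate 1 or GDC0941 IC50 replicate 2.

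Taken array by array, the median level over the 12 mitotic kinesins lay between 9.542 and 9.671 at BKM120 IC90 (max) and between 8.271 and 8.424 at GDC0941 max, against 8.731 to 8.92 in DMSO (log2 scale). The median over the 14 transport kinesins lay between 8.085 and 8.244 at BKM120 IC90 (max) and between 7.966 and 8.292 at GDC0941 max, against 8.139 to 8.247 in DMSO. The mitotic ranges are separate in these groups and the transport ranges overlap. The transport median lay under every DMSO array at BKM120 IC30 (7.98 to 8.133), at BEZ235 IC50, IC90 and max (7.75 to 8.121, 7.792 to 7.932 and 7.81 to 7.86) and at GDC0941 IC90 (8.012 to 8.085).

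**Figure D3:**
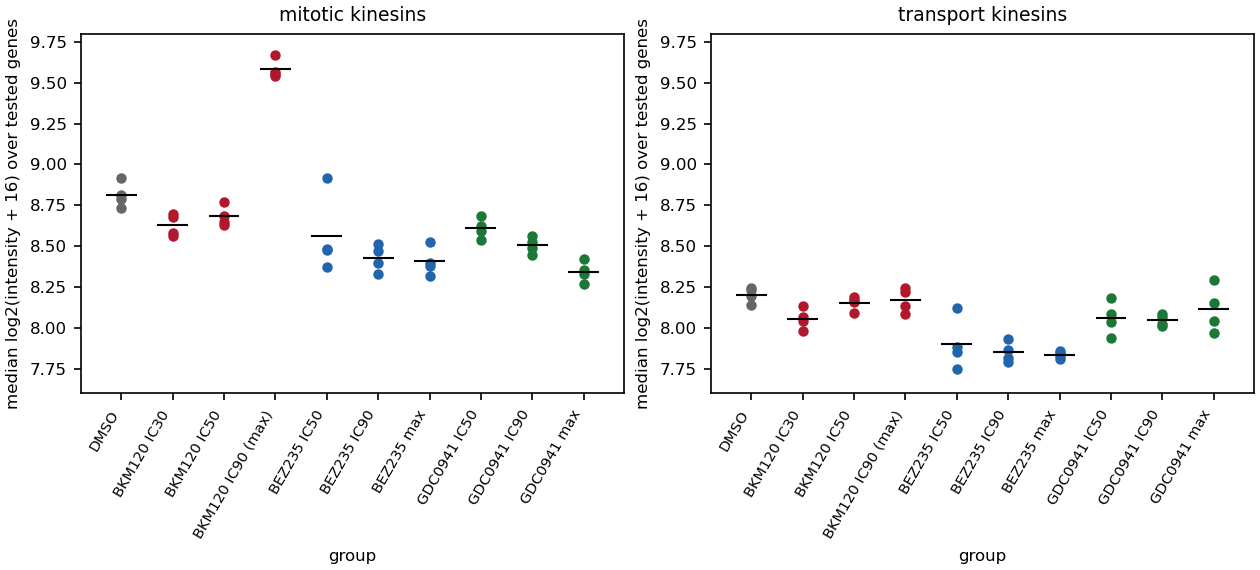
Median log2(intensity + 16) over the 12 tested mitotic kinesins (left) and the 14 tested transport kinesins (right) on each array (points), by group, with the group mean as a line; both panels use the same axis. The mitotic median is highest at BKM120 IC90 (max) and lowest at GDC0941 max, and the 1 high BEZ235 IC50 point at 8.919 is replicate 3.

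Because the mitotic kinesins moved together, the letters upstream of their starts are shown for 6 of the 12, picked by hand as examples of the spindle, chromosome and midzone motors, with the transport genes KIF3B and KIF3C for contrast. Each line gives 120 bases before to 30 after the annotated start, 5′ to 3′ on the gene's own strand, from RefSeq promoters of build GRCh38.p14. Capitals mark matches on either strand to TTTGAA, the letters of the cell cycle gene homology region (CHR), to its variants TTTAAA and TTCGAA, and to CCAAT, the box bound by NF-Y. As background, a CHR is read by complexes that hold these genes off outside G2 and mitosis.
KIF11 (chr10:92593010-92593159, plus strand): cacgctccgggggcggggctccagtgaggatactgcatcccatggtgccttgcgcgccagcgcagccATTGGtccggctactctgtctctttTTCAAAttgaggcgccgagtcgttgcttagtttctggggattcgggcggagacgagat
KIF15 (chr3:44761674-44761823, plus strand): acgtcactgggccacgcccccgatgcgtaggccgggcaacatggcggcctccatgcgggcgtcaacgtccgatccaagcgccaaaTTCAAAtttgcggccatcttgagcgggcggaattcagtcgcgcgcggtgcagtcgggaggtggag
KIFC1 (chr6:33391703-33391852, plus strand): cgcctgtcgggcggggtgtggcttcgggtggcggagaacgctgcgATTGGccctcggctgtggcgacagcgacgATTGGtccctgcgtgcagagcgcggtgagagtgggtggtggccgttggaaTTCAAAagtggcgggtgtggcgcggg
KIF18A (chr11:28108127-28108276, minus strand): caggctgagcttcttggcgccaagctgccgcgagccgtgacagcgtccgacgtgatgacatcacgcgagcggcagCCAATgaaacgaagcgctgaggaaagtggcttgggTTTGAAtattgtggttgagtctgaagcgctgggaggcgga
KIF4A (chrX:70289984-70290133, plus strand): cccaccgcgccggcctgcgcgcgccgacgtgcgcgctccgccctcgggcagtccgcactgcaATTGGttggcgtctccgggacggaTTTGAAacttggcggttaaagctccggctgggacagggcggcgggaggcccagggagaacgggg
KIF20A (chr5:138178992-138179141, plus strand): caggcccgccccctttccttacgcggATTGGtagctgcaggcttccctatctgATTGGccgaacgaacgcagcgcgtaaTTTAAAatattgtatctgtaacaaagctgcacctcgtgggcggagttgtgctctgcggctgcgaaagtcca
KIF3B (chr20:32277531-32277680, plus strand): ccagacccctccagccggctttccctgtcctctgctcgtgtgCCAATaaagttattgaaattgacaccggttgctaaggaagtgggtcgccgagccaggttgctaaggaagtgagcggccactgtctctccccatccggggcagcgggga
KIF3C (chr2:25982468-25982617, minus strand): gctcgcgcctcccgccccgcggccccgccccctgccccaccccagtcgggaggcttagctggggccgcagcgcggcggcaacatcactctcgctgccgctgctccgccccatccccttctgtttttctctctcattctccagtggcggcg

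Over the full windows of 300 bases (250 before to 50 after the start), 33 of the 41 motor genes had a RefSeq promoter. TTTGAA was in the windows of 9 of the 12 tested mitotic kinesins, 1 of the 10 tested transport kinesins with a window and 0 of 5 tested others, beside 18.2% of the 27305 genes with such a window. At least 1 of the 3 six-letter motifs was in 12 of 12 mitotic windows, 2 of 10 transport windows and 0 of 5 others, beside 29% of all genes. One of them together with CCAAT was in 10, 1 and 0, beside 11.7% of all genes. CCAAT by itself was in 10, 4 and 1, beside 39.7%. TTTAAA was in 4, 1 and 0 (14.5% of all genes), and TTCGAA was in 1, 0 and 0 (1.82%). Both strands were read, TTTAAA and TTCGAA are their own reverse complement, and in 0 windows of the members did matches to different motifs share a base. KIF20A carried TTTAAA 41 bases before its start, KIF18A carried TTTGAA 10 bases before and KIFC1 carried it on the opposite strand from base 5 after. A match is a string of letters and was not tied to binding in these data.

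CENPE, the kinetochore kinesin whose symbol falls outside the rule, had 568, 537, 529.5 and 606 at BKM120 IC90 (max) and 210.5, 188, 206 and 184 at GDC0941 max, against 354, 358, 312 and 357 in DMSO. Its changes of 0.68 and -0.76 were both called, so the kinesin left out by its name moved as the mitotic members did. Among 13 tested partners of the mitotic kinesins, CENPE included, 12 were called higher at BKM120 IC90 (max) and 11 lower at GDC0941 max, with median changes of 0.425 and -0.414. They include the chromosomal passenger subunit CDCA8 (0.71 and -0.83) and the RhoA activator ECT2 (0.57 and -0.41). Of 11 regulators of G2 and M phase, 7 were called higher and 2 lower at BKM120 IC90 (max), and 11 were called lower at GDC0941 max. CDC20 (0.76 and -0.67) and CCNB2 (0.74 and -0.22) moved with the kinesins, whereas CDK1 was lower under both (-0.30 and -0.66). Of 10 genes of S phase entry, 6 were called lower and none higher at BKM120 IC90 (max) (median -0.395), led by CCNE2 at -1.11 and CCNE1 at -0.95. At GDC0941 max 1 was called higher and 2 lower. Of all genes, 17.2% were called higher and 17% lower at BKM120 IC90 (max), and 25.5% and 18.2% at GDC0941 max. The S phase counts at GDC0941 max lie below that share on the higher side and near it on the lower side. These lists were measured in the same RNA as the kinesins, and their part in the kinesin changes was not tested. Cell numbers and RNA per cell in each cycle phase cannot be told apart in bulk RNA.

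The transport kinesins gave a mixed picture. At BKM120 IC90 (max) 2 of the 14 were called higher (KIF3A and KIF5B) and 4 lower (KIF21A, KIF21B, KIF3B and KIF3C), with a median of -0.028. Against the 17.2% and 17% of all genes given above, these counts are near the background on the higher side. The 2 called higher there were 0 without DMSO replicate 4 or BKM120 IC90 (max) replicates 1 or 2, and 1 without DMSO replicates 1, 2 or 3 or BKM120 IC90 (max) replicate 3. BEZ235 lowered 5 transport kinesins at each of its 3 levels and raised 1, 1 and 2 at IC50, IC90 and max, beside 18.9%, 23.9% and 24.9% of all genes lower and 26.6%, 31.1% and 32.8% higher. GDC0941 lowered 1, 2 and 2 at IC50, IC90 and max and raised 0, 1 and 4, beside 6.19%, 9.83% and 18.2% of all genes lower and 9.94%, 15.4% and 25.5% higher. The 4 raised at max were 2 without DMSO replicates 2, 3 or 4 or GDC0941 max replicate 3. The median of the gene changes lay between -0.181 and -0.028 over the 9 treatments, and that of the mitotic kinesins between -0.441 and 0.577. The median level by array gave larger falls in the transport class with BEZ235. It averaged 7.851 ± 0.062 at BEZ235 IC90 and 7.836 ± 0.023 at BEZ235 max, against 8.203 ± 0.048 in DMSO (SD, n = 4 each), where the medians of the gene changes were -0.059 and -0.181. For the mitotic class the levels were 8.427 ± 0.08 and 8.407 ± 0.088, against 8.812 ± 0.079 in DMSO. Of the 14 genes, KIF5C and KIFC3 were called in none of the 9 treatments against DMSO by limma. Their changes lay between -0.24 and 0.14 for KIF5C and between -0.18 and 0.16 for KIFC3. Between compounds, KIF5C was called lower in BEZ235 than in GDC0941 at IC50, IC90 and max (-0.342, -0.327 and -0.325). It was called higher in BKM120 than in BEZ235 at IC50 and IC90 (0.308 and 0.31). At IC50 the arrays overlapped in both. KIFC3 was called higher in BEZ235 than in GDC0941 at max (0.27).

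Within the kinesin-2 family, which forms the motor of intraflagellar transport with the adaptor KIFAP3, the 3 genes moved apart. KIF3C had 97.7, 74, 103 and 74.5 at BEZ235 max and 127, 127, 151 and 129 at GDC0941 max, against 139, 143, 135 and 148.5 in DMSO. The BEZ235 arrays lie below every DMSO array, and the GDC0941 arrays overlap them. KIF3C changed by -0.50, -0.70 and -0.62 at BEZ235 IC50, IC90 and max (all called) and by 0.17, 0.04 and -0.08 with GDC0941 (none called). BEZ235 over GDC0941 itself was called at every level, with -0.66 at IC50, -0.73 at IC90 and -0.54 at max (adjusted p = 3e-06, 1.7e-07 and 3.3e-05, limma). KIF3B was lowered in 7 of the 9 treatments, by between -0.26 and -0.48. KIF3A, its partner in the heterodimer, rose by 0.25 at BKM120 IC50, 0.24 at BKM120 IC90 (max), 0.25 at GDC0941 IC90 and 0.27 at GDC0941 max. In each of these the KIF3A arrays overlapped those of DMSO, and with BEZ235 the probe set used was not called. The second, dimmer probe set of KIF3A fell at GDC0941 max (-0.31, SE 0.10, adjusted p = 0.0291 in a limma fit of each probe set on its own) and by more at BEZ235 IC90 (-0.63) and max (-0.62), both called, so the direction of KIF3A depends on the probe set. KIFAP3 changed by -0.19 at BKM120 IC90 (max), 0.23 at BEZ235 max and 0.22 at GDC0941 max, all called.

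The conventional kinesin heavy chain KIF5B, which carries mitochondria and many vesicles with the light chains KLC1 to KLC4, had small changes in its brightest probe set. It had 2137, 2179, 2149 and 2057 at BKM120 IC90 (max), against 2038, 1859, 1982 and 1971 in DMSO. The 2 groups do not overlap, yet the change was 0.12 (SE 0.05, adjusted p = 0.0499, limma), which is at the threshold. A second KIF5B probe set was dimmer, with a mean log2 level of 10.076 against 10.904 for the one used. At GDC0941 max it gave -0.36 (adjusted p = 2e-07 in the limma fit of each probe set). The one used gave -0.08 there and was not called. The second was called lower in 8 of the 9 treatments and gave 0.10, not called, at BKM120 IC90 (max). Of 15 tested transport partners, 1 was called higher (MAPK8IP3, a JNK scaffold, 0.71) and 1 lower (KIFAP3) at BKM120 IC90 (max), and 4 were called higher and 2 lower at GDC0941 max. Those counts are below the 17.2% and 17% of all genes at BKM120 IC90 (max) and near the 25.5% and 18.2% at GDC0941 max.

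The kinesin-3 genes differed by compound. KIF16B, which carries early endosomes, fell with BEZ235 by -0.37, -0.27 and -0.33 at IC50, IC90 and max. In that probe set it was not called with the other compounds. Its second, dimmer probe set gave another order, with -0.42 at BKM120 IC50, -0.54 at GDC0941 IC90 and -0.57 at GDC0941 max (all called in the fit of each probe set) and -0.16, -0.31 and -0.27 with BEZ235 (none called). KIF1C, a carrier of integrin and dense-core vesicles, fell with BEZ235 by -0.27, -0.47 and -0.47 and in that probe set was not called with the other compounds. Its second probe set fell further with BEZ235 (-0.66, -0.73 and -0.82) and was also called lower at all 3 levels of BKM120 (-0.29, -0.27 and -0.26) and at GDC0941 IC50 (-0.36) and max (-0.23). In the probe sets used, the difference of BEZ235 over GDC0941 at max was called for both, at -0.31 for KIF16B and -0.33 for KIF1C (adjusted p = 0.0132 and 0.00583, limma). KIF13B rose by 0.29 at BEZ235 IC50, 0.32 at BEZ235 max and 0.28 at GDC0941 max, and in each the arrays overlapped those of DMSO. It had 155.9, 129.2, 221.1 and 122.6 at BEZ235 IC50, and the high value is on the array that stood apart in RNA quality. KIF13A, which moves recycling endosomes towards melanosomes in melanocytes, rose at GDC0941 max by 0.19 (SE 0.06, adjusted p = 0.00815, limma). It had 1448, 1529.9, 1598 and 1500.0 on the GDC0941 max arrays, all above the 1415, 1273, 1322 and 1305 in DMSO. KIF1B was called in 1 treatment, BKM120 IC50, at -0.19. Its other probe sets were called lower at BEZ235 IC50 in one (-0.37) and at BEZ235 IC90 and max in another (-0.53 and -0.34).

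KIF21A and KIF21B are kinesin-4 motors that limit microtubule growth. KIF21A had 365, 342, 384 and 355 at BKM120 IC90 (max) and 236, 418, 371 and 394 at BEZ235 max, against 549, 571.5, 505 and 461 in DMSO. Both treated groups lie below every DMSO array, and the changes were -0.51 and -0.56. With GDC0941 the values of KIF21A were -0.28, -0.25 and -0.30 and were not called. KIF21B showed the other arrangement, with called falls of -0.49, -0.69 and -0.67 with GDC0941 and uncalled values of -0.16, -0.06 and -0.20 with BEZ235. It was dim, at 14.1, 13.2, 11.4 and 10.3 on GDC0941 max arrays, against 32.7, 23.8, 33.4 and 26.6 in DMSO, and a log2 change after adding 16 understates the change of such a gene. The difference of BEZ235 over GDC0941 in KIF21B was called at IC50 (0.33), IC90 (0.63) and max (0.47). At IC50 the groups overlapped (adjusted p = 0.0409, limma). KIF21B had 21.2, 20.4, 39.9 and 18.8 at BEZ235 IC50, and the high value is on the array that stood apart in RNA quality. For KIF21A it was not called at any level by limma.

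The minus-end-directed KIFC2, known from dendrites of mouse neurons, rose at BEZ235 IC90 (0.68), BEZ235 max (0.77) and GDC0941 max (0.49). It had 187, 224, 156 and 153 at BEZ235 max and 136, 118, 221 and 119 at GDC0941 max, against 91.6, 97.4, 92.3 and 111 in DMSO. All treated values exceed the DMSO values, and 1 GDC0941 array is far above the other 3. The GDC0941 call was lost without that array (replicate 3) and without DMSO replicates 1, 2 or 3.

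Of 24 dynein and dynactin genes, which encode the motor that runs the opposite way, 21 were tested, and at BKM120 IC90 (max) 2 were called higher and 2 lower. The largest rise was that of NDE1, a dynein regulator with roles in mitosis, at 0.93. At BEZ235 max 5 were called higher and 7 lower. As shares of the 21 these lie below the 17.2% and 17% of all genes at BKM120 IC90 (max), and at BEZ235 max below the 32.8% higher and above the 24.9% lower.

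Of the 6 other kinesins, KIF6 and KIF9, which are tied to motile cilia and sperm tails in mouse, and KIF7, which regulates Hedgehog signalling at the tip of the primary cilium, rose most often. KIF6 had 54.5, 60.6, 55.3 and 60.4 at BKM120 IC90 (max), 99, 90.6, 102 and 102 at BEZ235 max and 85.5, 95.3, 75.3 and 78.6 at GDC0941 max, against 35.3, 37.3, 35.9 and 40.8 in DMSO. All 3 treated sets lie above every DMSO array, and the folds were 1.38, 2.14 and 1.87. The rise of 1.10 at BEZ235 max (SE 0.11, adjusted p = 1.9e-10, limma) was the largest of any tested kinesin in the 9 treatments. The next brightest of its other probe sets, all dimmer, gave 0.64, 0.60 and 0.62 at BEZ235 IC50, IC90 and max (called in the fit of each probe set), where the one used gave 0.43, 1.08 and 1.10. It gave 0.02 at BKM120 IC90 (max) and 0.31 at GDC0941 max, neither called. KIF7 rose by 0.47, 0.54 and 0.48 with BEZ235 and by 0.40 at GDC0941 max. KIF9 rose by 0.51 at BEZ235 max and 0.22 at GDC0941 max, measured by a probe set whose suffix marks possible cross-hybridisation. KIF25 rose at BEZ235 IC90 (0.34) and max (0.44), and KIF26B at BEZ235 IC50 (0.30) and IC90 (0.40). Both were dim, with mean log2 levels of 4.982 and 5.014 beside 4.938 for the dimmest gene tested. At BEZ235 IC90 the KIF25 arrays overlapped those of DMSO. KIF2A, a depolymerase that acts at spindle poles and in neurons, fell at BEZ235 max (-0.25) and GDC0941 max (-0.23) and was not called at BKM120 IC90 (max) (-0.15, adjusted p = 0.115, limma). Nor was KIF2A called at IC90 in BKM120 over BEZ235 or GDC0941, or in the BKM120 step from IC50 to IC90. The statements that all tested mitotic kinesins were called higher with BKM120 at IC90 depend on its placement among the others.

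Set against each other at the same named level, BKM120 parted from the other compounds in the mitotic kinesins at IC90. BKM120 over BEZ235 was called higher for all 12 mitotic kinesins at IC90, with a median difference of 0.95 and a range from 0.532 (KIF11) to 1.434 (KIFC1). BKM120 over GDC0941 was also called higher for all 12, with a median of 0.921 and a range from 0.489 (KIF11) to 1.391 (KIF18A). Among all genes, 18.5% were called higher and 26.6% lower in BKM120 over BEZ235, and 11.7% and 18.2% in BKM120 over GDC0941. Of the transport kinesins, 6 were called higher and 2 lower over BEZ235, and 1 each way over GDC0941 (KIF5B at 0.22 and KIF3C at -0.34). With any 1 of the 8 arrays left out, 4 or 5 were called higher and 1 to 3 lower over BEZ235.

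At IC50 few mitotic kinesins differed between the compounds, though BEZ235 differed from the others in many genes. BKM120 over GDC0941 called none of the 32 kinesins by limma, and 4 had an unadjusted p under 0.05, none of them mitotic. Here 0.455% of all genes were called higher and 0.143% lower. The 95% intervals of the 12 mitotic differences all lay between -0.343 and 0.403, so differences of the size seen at IC90 in KIF18A, KIF20A or KIFC1 are outside them. BKM120 over BEZ235 at IC50 called 9 kinesins, with KIF20B higher (0.27) and KIF15 lower (-0.20) among the mitotic ones, beside 15.2% of all genes higher and 16.9% lower. BEZ235 over GDC0941 at IC50 called 4 kinesins, none of them mitotic by limma (2 mitotic at an unadjusted p under 0.05), beside 18.6% of all genes higher and 15.5% lower. The count of 4 was 8 without BEZ235 IC50 replicate 3, 9 without replicate 4 of that group and 2 without GDC0941 IC50 replicates 2 or 3.

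Between BEZ235 and GDC0941 at IC90, KIF15 (0.24) and KIF18B (0.16) were called higher and KIF14 (-0.17) lower among the mitotic kinesins, beside 23% of all genes higher and 20% lower. The KIF18B call did not hold when any 1 of the 8 arrays was left out. At max, KIF15 (0.39), KIF18A (0.24), KIF18B (0.23) and KIF22 (0.24) were called higher in BEZ235 and none lower, beside 18.7% and 17.8% of all genes. The remaining 8 mitotic kinesins had differences that were not called, which does not show that the compounds acted alike on them.

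The step from IC50 to IC90 within a compound puts the contrast in 1 measure. In BKM120 the step was called higher for all 12 mitotic kinesins, from 0.457 for KIF11 to 1.144 for KIF18A (median 0.8), and for KIF5B (0.23). KIF21B, KIF3B and KIF3C were called lower at that step, at -0.36, -0.24 and -0.38. The KIF21B arrays of the 2 levels overlapped. With any 1 of the 8 arrays left out, only 1 or 2 transport kinesins were called lower. Of all genes, 13.8% were called higher and 20.8% lower at that step. In BEZ235 the step called KIF18B higher (0.17) and KIF14, KIF18A and KIFC1 lower (-0.28, -0.19 and -0.42), with KIF6 (0.65) and KIF9 (0.21) higher among the others, beside 14.3% and 13.6% of all genes. Without BEZ235 IC50 replicate 3, the array that stood apart, the steps of KIF18A, KIF18B and KIFC1 were -0.157, 0.053 and -0.177 and were no longer called. The same array held the lowest KIF6 value of its group (32.8). In GDC0941 the step called only KIF18A among the 32 kinesins (-0.25, SE 0.06, adjusted p = 0.0276, limma), beside 1.37% of all genes higher and 0.91% lower. That call was lost when GDC0941 IC50 replicates 1, 2 or 4 or GDC0941 IC90 replicates 2, 3 or 4 were left out in turn.

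**Figure D4:**
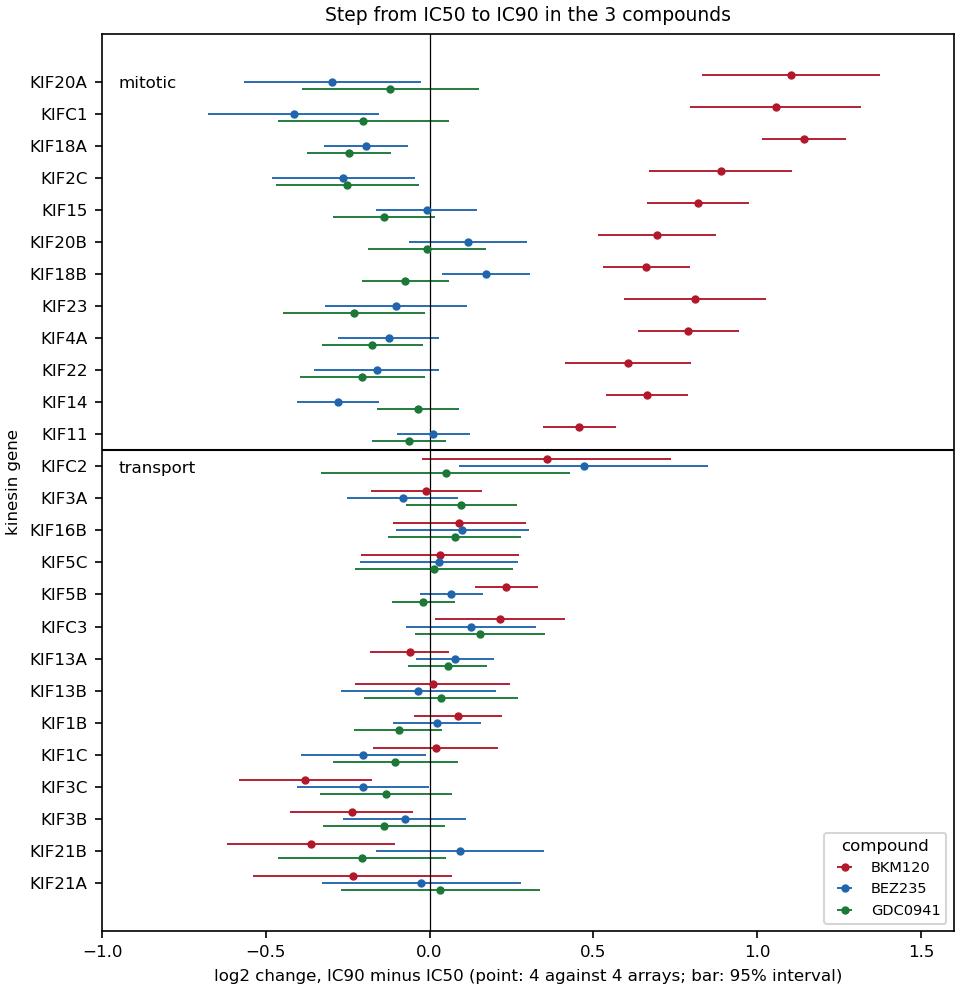
Log2 change from IC50 to IC90 of each tested mitotic and transport kinesin (y axis) in BKM120, BEZ235 and GDC0941 (colours), as the difference of means of 4 arrays each with its 95% interval. The BKM120 points of all 12 mitotic kinesins lie between 0.457 and 1.144, right of every BEZ235 and GDC0941 point of the same gene, while the transport points of all 3 compounds lie between -0.379 and 0.47.

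The difference between the steps was tested directly. The BKM120 step exceeded the BEZ235 step for all 12 mitotic kinesins (median 0.913), and no other of the 32 kinesins was called by limma (15 at an unadjusted p under 0.05). The BKM120 step exceeded the GDC0941 step for all 12 (median 0.962) and for KIF5B (0.25). KIF20A gave 1.40 over the BEZ235 step and 1.22 over the GDC0941 step, and KIF11 gave 0.45 and 0.52. All genes gave 9.88% higher and 14.6% lower for the first difference and 7.35% and 11.9% for the second. Between the BEZ235 and GDC0941 steps KIF6 alone was called (0.67, SE 0.16, adjusted p = 0.00614, limma), beside 5.01% and 4.8% of all genes. With the mean over its probe sets in place of the brightest that difference was 0.065 and was not called. KIF6 had 75.3, 58.5, 32.8 and 64.9 at BEZ235 IC50, and the low value is on the array that stood apart in RNA quality.

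For 27 of the genes taken by symbol, KIF25-AS1 and some untested motor genes among them, the array holds more than 1 probe set. The plot of changes gives each probe set of the tested ones. The second probe sets of KIF14 and KIF2C were called in the same directions as the first at BKM120 IC90 (max) and GDC0941 max, with KIF14 at 0.83 in its second probe set at BKM120 IC90 (max) and -0.68 at GDC0941 max. Opposite calls between the probe set used and another of the same gene occurred for KIF3A at GDC0941 max and nowhere else in the 9 treatments. Between 2 other probe sets of KIF13A they occurred at BEZ235 IC90 (0.16 and -0.29).

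**Figure D5:**
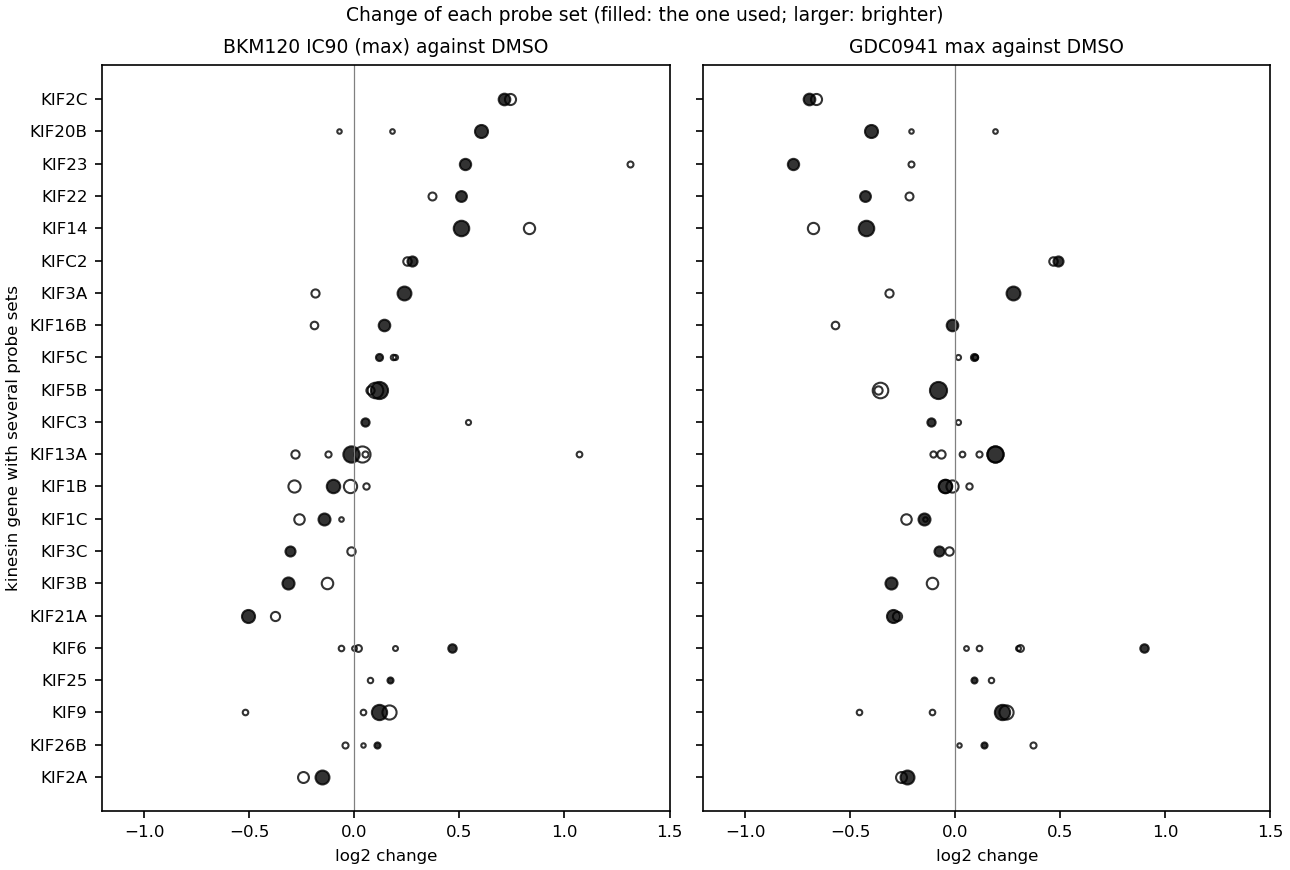
Log2 change of every probe set (circles, larger for brighter) of the tested kinesin genes (y axis) with more than 1, at BKM120 IC90 (max) against DMSO (left) and at GDC0941 max against DMSO (right); filled circles are the probe sets used in the text. The used probe sets of the 5 mitotic genes shown lie right of 0 on the left and left of 0 on the right, and the dim open circles of KIF23 at 1.312 and KIF13A at 1.067 lie far from the filled ones.

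The 9 motor genes that did not pass the filter were dim on every array. KIF2B, which is known for its role at spindle attachments, reached at most 5.3, and KIF1A, KIF5A, KIF17, KIF19, KIF24 and KIF27 stayed at 9.2 or lower. KIF12 and KIF26A reached 20.8 and 21.8. The 4 antisense RNAs (KIF1C-AS1, KIF9-AS1, KIF23-AS1 and KIF25-AS1) reached at most 13. No change is given for these genes. KIF4B was not analysed here.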

How the data were processed

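The 40 arrays measured RNA of A2058 cells in 10 groups of 4, grouped by the agent and concentration labels. The deposited intensity values were made by the authors with MAS5, per the submitters' processing notes. The MAS5 version was not given in the sources used here. They are linear, and each array's mean without its highest and lowest 2% of probe sets was 150. Of 54675 probe sets, 41097 had 1 gene symbol, 1801 several and 11777 none, from the platform annotation, and no gene was named from a probe set with several. Values were set to log2(intensity + 16), the probe set with the highest mean stood for a gene, and the dimmest 40% of genes (mean intensity under about 14.7) were dropped, leaving 11865 tested. limma 3.58.1 (R 4.3.3) fitted 10 group means to all arrays with 30 residual degrees of freedom and a mean-variance trend, and in each of 22 comparisons p-values received the Benjamini-Hochberg adjustment. The fit was tested on simulated data with known changes. Array data carry no read depth, and the number of arrays limits the precision. The kinesin members were taken by symbol, and the classes, partner lists, marker lists and tests were chosen with earlier results of these data known. Named genes were any kinesin, CENPE, and up to 5 called genes per other list and comparison with the largest changes. Promoters came from RefSeq (GRCh38.p14) and were used for letters only. Alternatives were the pseudocount, the filter, quantile normalization, the choice of probe set, a replicate block, 39 arrays, fits to the compared groups alone and leaving out each replicate. A fit of each of 54613 probe sets was added after the data were seen. Detection calls and proteins were not used here.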

Additional observations from a re-analysis of the deposited data

Results flagged for a closer look

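The step from IC50 to IC90 differed between compounds by a direct limma test in 26 kinesin comparisons, and these values are log2 differences of steps. For BKM120 minus BEZ235 they were 0.446 for KIF11, 0.943 for KIF14, 0.828 for KIF15, 1.337 for KIF18A, 0.489 for KIF18B and 1.401 for KIF20A. The other mitotic kinesins gave 0.577 for KIF20B, 0.768 for KIF22, 0.911 for KIF23, 1.151 for KIF2C, 0.915 for KIF4A and 1.472 for KIFC1. For BKM120 minus GDC0941 they were 0.520 for KIF11, 0.698 for KIF14, 0.959 for KIF15, 1.391 for KIF18A, 0.735 for KIF18B and 1.223 for KIF20A. The rest were 0.703 for KIF20B, 0.811 for KIF22, 1.040 for KIF23, 1.140 for KIF2C, 0.965 for KIF4A, 1.259 for KIFC1 and 0.254 for the transport kinesin KIF5B. For BEZ235 minus GDC0941 the value was 0.666 for KIF6.

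Signals also appeared in probe sets outside the main measurement. A dim KIF23 probe set rose by 1.312 at BKM120 IC90 (max), with mean intensities of 58.4 against 14.2 in DMSO, where the probe set used for KIF23 rose by 0.53. A dim KIF13A probe set rose by 1.067, with 40.8 against 11.1 in DMSO, where the one used gave -0.02 and was not called. At GDC0941 max the same probe sets gave -0.21 and 0.03, neither of them called. In the median level of the mitotic and transport kinesins no array lay far enough from its group to be listed by the 95% criterion for a single outlying value, in 20 groups of 4.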

How the results depend on the processing

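The mitotic calls were the firmest: under the listed alternatives the 12 tested mitotic kinesins (11 at the stricter filter) were called higher at BKM120 IC90 (max) and lower at GDC0941 max, and with no filter 12 of 13 were, with KIF2B added. The counts of called kinesins at low levels moved most. Quantile normalization, leaving out probe sets marked for cross-hybridisation, and the replicate block moved no count by over 1.5 times. With the replicate block the counts included 5 at BKM120 IC30, 3 at BKM120 IC50 and 15 at GDC0941 IC90. The replicate numbers did not pair the samples: same-numbered arrays had a median correlation of deviations of -0.015 over 180 pairs, against 0.005 over 540 pairs with different numbers. With 39 arrays the counts were 11 at BKM120 IC30, 10 at BKM120 IC50, 11 at GDC0941 IC50, 1 for BKM120 over GDC0941 at IC50, 8 for BEZ235 over GDC0941 at IC50 and 2 each for the GDC0941 step and the BEZ235 minus GDC0941 step. Fitting the compared arrays alone, with fewer residual degrees of freedom, gave 5 at BEZ235 IC50, 1 for BKM120 over BEZ235 and 1 for BEZ235 over GDC0941 at IC50, and 0 for the BEZ235 step, the GDC0941 step and their difference. A filter at the 60th percentile, with fewer kinesins tested, gave 4 for BKM120 over BEZ235 at IC50, and for BEZ235 over GDC0941 0 at IC50, 5 at IC90 and 7 at max, with 0 for the difference of their steps. It moved the transport median to -0.164 at BEZ235 IC90, -0.244 at BEZ235 max and -0.12 at GDC0941 IC90. With no filter 3 kinesins were called at BKM120 IC30, and the transport median was -0.018 there and -0.086 at BEZ235 max. That last median was -0.24 with a pseudocount of 1 and -0.103 with 64. With the mean over probe sets the mitotic median at BKM120 IC90 (max) was 0.662, the transport median at BEZ235 IC90 -0.163, and the counts 8 for BEZ235 over GDC0941 at IC50 and 2 for the GDC0941 step. Under it, KIF3A (-0.02) and KIF9 (-0.026) at GDC0941 max turned negative, and the cause was not tested. Leaving out 1 replicate at a time gave 3 to 7 at BKM120 IC30, 2 to 5 at BKM120 IC50, 10 to 15 at GDC0941 IC90, 5 to 10 for BKM120 over BEZ235 at IC50, 2 to 9 for BEZ235 over GDC0941 at IC50 and 6 to 10 at IC90. It gave 4 to 11 for the BEZ235 step, 0 to 1 for the GDC0941 step and 1 to 2 for their difference, and transport medians of -0.234 to -0.127 at BEZ235 max and -0.1 to -0.018 at GDC0941 IC90. Of the single kinesin calls, 1990 of 2240 kept their side of the threshold when 1 replicate was left out. The number of arrays, and dim signal in the untested genes, limit what these data resolve.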
